A study of Ovis aries with 20 samples.

Results

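The contractile and calcium signalling proteins examined here were the products of 8 genes: TNNC2, MYH7, TPM1, CALM2, CALML4, RCAN1, PRKACA and CRYAB. Their members were all probes that the sheep array's own annotation names for one of these genes, which gave 12 of 15008 probes, against 865 genes that could be named in all. TNNC2, MYH7, CALML4 and PRKACA had 2 probes each, and the other members had 1. The probe with the higher mean over the 20 arrays stands for its gene. MYH7 was recognised only through the array name OMYHCS, a sheep slow myosin heavy chain name attached to an expressed sequence tag.

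RNA came from hearts of singleton newborn lambs whose mothers had been infused without interruption, from about gestation day 115 to birth, with cortisol at 1 mg/kg/day or with vehicle. The groups were LV cortisol, LV control, septum cortisol and septum control, where LV is the left ventricle and septum the wall between the ventricles, with 5 arrays each. Lambs were killed between 10 and 480 min after birth, with no time given per animal. All 4 groups carry the word telemetry in their labels, and the ewe rather than the lamb received the infusion. Arrays from the 2 regions that carry the same treatment and number were taken as 1 lamb.

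In the sarcomere, myosin heavy chains of the thick filament pull on actin, and tropomyosin and the troponin complex of the thin filament let them do so only when calcium binds troponin C. Calcium also acts through calmodulin, an EF-hand protein that activates kinases and the phosphatase calcineurin, and protein kinase A tunes contraction in response to adrenaline. CRYAB is a small heat shock protein that is abundant in heart muscle and guards desmin and other filaments. Around birth the heart takes on a greater load, and cortisol rises in the fetus before term.

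Values are log2 of the processed spot intensity minus the array's own 75th percentile on that scale, so 0 is the level of the upper quartile of probes on that array, and a step of 1 is a doubling of intensity. Every one of the 12 probes was well above background on 20 of 20 arrays. Over all spots 57.9% to 72.1% were well above background per array, and the 75th percentile lay between 99.2 and 440.8 intensity units. There were 4 slides. On slide 1 were septum arrays (6) and on slide 3 LV arrays (6), with 3 of either treatment on each. Both regions were present on slide 2, with 4 arrays of septum and 3 of LV, while LV cortisol 4 was by itself on slide 4. Of the cell markers, myoglobin (MB), the oxygen store of heart muscle, stood at 7.87 to 8.87 over its 16 usable spots, and MYH7 at 3.00 to 4.62, so both muscle markers were bright in every group. Markers of fibroblasts, the collagen-making cells of the heart wall, were measured for 4 of 7 genes, and their cortisol differences were positive in 4 of 4 in LV (median 0.39) and in 4 of 4 in septum (median 0.53), with none passing. Of all probes 49.1% and 54.7% were positive. The fibroblast differences ran from 0.07 ± 0.56 for COL3A1 to 0.89 ± 0.45 for COL1A1 in LV, and from 0.22 ± 0.43 to 0.92 ± 0.44 for the same genes in septum. Endothelial markers were positive in 0 of 3 in LV and 2 of 3 in septum, leukocyte markers in 2 of 3 and 3 of 3, and red cell markers in 0 of 1 and 2 of 2. The 1 smooth muscle marker was negative in both regions. None of these passed. The part of such cells in the cortisol differences of TNNC2 and CALM2, which were positive in both regions, was not tested. In bulk tissue fewer cells of a type and less RNA per cell cannot be told apart.

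For cortisol against control, 0 of the 8 genes passed the test in either region (limma, p adjusted by Benjamini-Hochberg over the probes tested, threshold 0.05). The same was true of 0 of 9791 probes in LV (0% called) and 0 of 10369 in septum (0% called). At an unadjusted p under 0.05, TNNC2 and CALM2 were under the threshold in LV and again in septum, 2 of 8 genes each, against 5.19% of all LV probes and 3.71% of all septum probes. The differences were positive for 5 of 8 genes in LV and for 6 of 8 in septum, against 49.1% and 54.7% of all probes, and the members' median was 0.23 in LV and 0.33 in septum, against -0.01 and 0.03 over all probes. No gene had cortisol and control arrays that did not overlap in either region (0 of 8), which 0.735% of LV probes and 0.386% of septum probes had. The members were chosen with earlier results of these data known, so their counts and medians beside those of all probes are a description only. The 2 regions come from the same lambs and are not independent of each other.

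**Figure D1:**
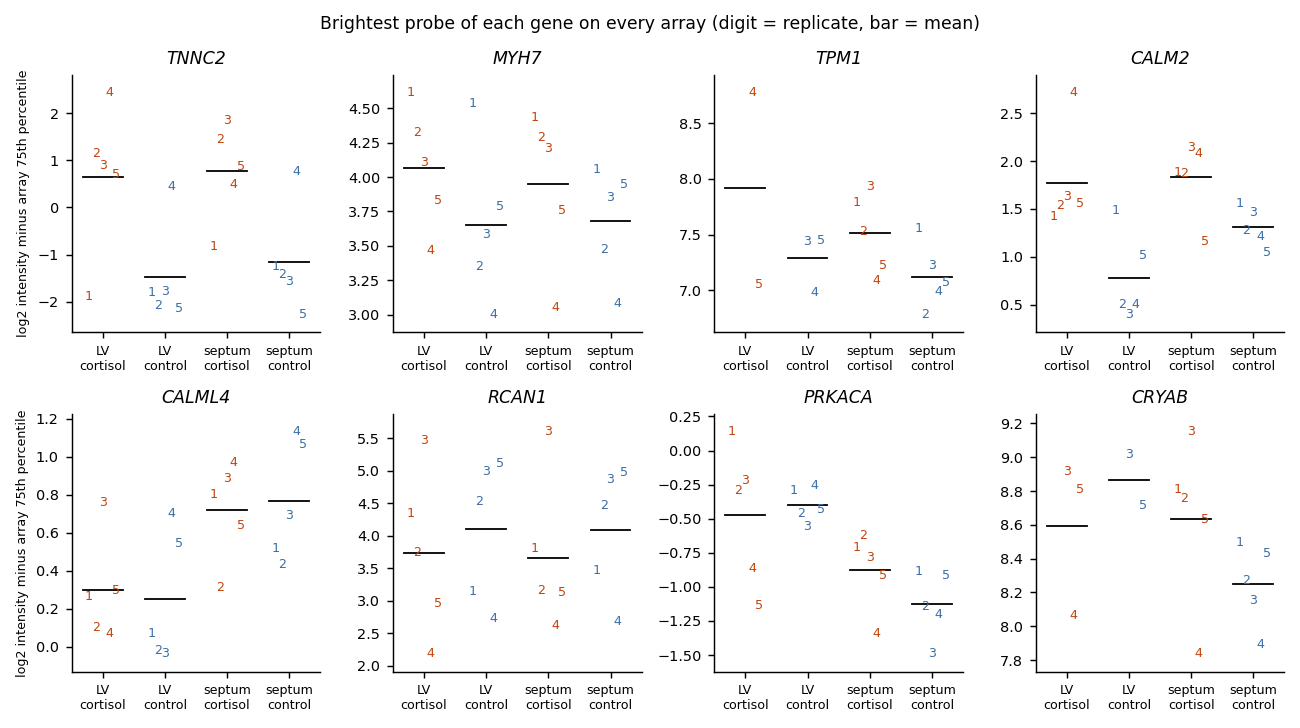
The brightest probe of each of the 8 genes on every array, as log2 intensity minus the array's 75th percentile, with digits for the replicate and a bar for the group mean. In the TNNC2 panel the cortisol means stand above the control means in both regions, while control 4 and cortisol 1 lie among the other treatment's arrays. For TPM1 and CRYAB some LV arrays have no value because the spot was marked as an outlier.

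TNNC2 encodes troponin C of fast skeletal muscle, the calcium-binding troponin subunit that heart muscle replaces with the product of another gene. Both its probes are shown because they are nearly one sequence: they share 59 of their 60 bases, and the capital in each marks the single base that the other lacks.
A_70_P029961: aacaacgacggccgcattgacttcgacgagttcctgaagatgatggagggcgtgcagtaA
A_70_P029962: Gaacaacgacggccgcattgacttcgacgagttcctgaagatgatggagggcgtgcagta
The first ends with the stop codon of its reading frame at base 60, so both read the very end of the coding sequence. Their agreement over the 20 arrays (r = 0.98, across arrays that share the same 2 probes) is therefore no second measurement of another part of the transcript.

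TNNC2 stood at -1.89, 1.15, 0.88, 2.44 and 0.69 in LV of cortisol 1 to 5, against -1.80, -2.08, -1.79, 0.44 and -2.15 in LV of control 1 to 5. Its septum values were -0.82, 1.44, 1.85, 0.50 and 0.87 in cortisol 1 to 5, against -1.25, -1.41, -1.56, 0.77 and -2.27 in control 1 to 5. No array lay between -0.82 and 0.44, so the values fall into a high and a low set. Cortisol 1 was low and control 4 high, in both regions, and the other 8 lambs followed their treatment. Thus 4 of 5 LV cortisol arrays lay above every control array, and 3 of 5 did in septum.

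The mean of TNNC2 was 0.66 ± 1.58 in LV cortisol and -1.48 ± 1.09 in LV control (SD, n = 5 each), a log2 difference of 2.13 ± 0.73 (SE), or 4.38-fold. In septum it was 0.77 ± 1.03 in cortisol and -1.15 ± 1.14 in control (SD, n = 5 each), a difference of 1.91 ± 0.60, or 3.77-fold. Neither passed in limma (unadjusted p = 0.0139 and adjusted p = 0.877 in LV, unadjusted p = 0.00829 and adjusted p = 0.818 in septum). The other probe gave 2.00 ± 0.73 and 1.95 ± 0.66. On slide 2 alone the LV difference was 2.66 and on slide 3 alone 1.20, and the septum difference was 1.46 on slide 1 alone and 2.60 on slide 2 alone, all positive. The LV value of slide 2 sets 1 cortisol array against 2 control arrays, and LV cortisol 4 has no control array on its slide. From the deposited value table, which holds fewer probes for septum than for LV, the septum difference was 1.00, against 1.98 in LV.

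Other genes of fast skeletal muscle were examined beside TNNC2, since skeletal muscle is its usual site. Of the 16 genes of that list 5 were named on the array, and 0 of the 2 that could be tested in LV and 0 of 3 in septum passed. With TNNC2 counted, the cortisol differences were positive in 2 of 2 in LV and 3 of 3 in septum, against 49.1% and 54.7% of all probes. As TNNC2 prompted the list and is itself counted, these counts are a description only. MYLPF, a fast regulatory myosin light chain, was well above background on 20 of 20 arrays but kept to a narrow range, -2.76 to -1.06. It stood at -1.69 ± 0.43 in LV cortisol and -2.20 ± 0.32 in LV control, and at -1.91 ± 0.49 in septum cortisol and -2.40 ± 0.31 in septum control (SD, n = 5 each), differences of 0.51 ± 0.24 and 0.49 ± 0.25. The adult fast myosin heavy chains MYH1 and MYH2 were well above background on 1 and 2 of 20 arrays, and MYOD1, the skeletal muscle determination factor, on 5 of 20. The septum difference of MYOD1 was 0.75 ± 0.56. The single MYH1 array above background was cortisol 1 in septum, also 1 of the 2 for MYH2. On that array TNNC2 was at -0.82 by its leading probe, the highest value of its low set, and at -1.58 by the other probe. Whether skeletal muscle genes have a part in the TNNC2 difference was not tested.

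CALM2 is one of the genes that encode calmodulin, whose protein sequence they share. Its probe is shown with the stop codon in capitals, to set it beside TNNC2: it too reads the last part of the coding sequence of an EF-hand protein, up to a stop codon that ends at base 51, with 9 bases beyond.
A_70_P051166: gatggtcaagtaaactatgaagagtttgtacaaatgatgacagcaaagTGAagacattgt
Binding of this probe to transcripts of the other calmodulin genes was not tested.

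CALM2 stood at 1.43, 1.54, 1.63, 2.72 and 1.56 in LV of cortisol 1 to 5, against 1.49, 0.50, 0.39, 0.50 and 1.01 in LV of control 1 to 5. Only control 1 reached the cortisol arrays, so 4 of 5 cortisol arrays lay above every control array. In septum CALM2 was 1.88, 1.88, 2.14, 2.08 and 1.16 in cortisol 1 to 5, against 1.55, 1.27, 1.47, 1.21 and 1.05 in control 1 to 5. Here again 4 of 5 cortisol arrays exceeded every control array, and cortisol 5 lay within the control range.

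The mean of CALM2 was 1.78 ± 0.53 in LV cortisol and 0.78 ± 0.46 in LV control, a log2 difference of 1.00 ± 0.30, or 2.00-fold. In septum it was 1.83 ± 0.39 in cortisol and 1.31 ± 0.20 in control (SD, n = 5 each), a difference of 0.52 ± 0.21, or 1.43-fold. In limma the unadjusted p was 0.00616 in LV and 0.0285 in septum, and the adjusted p was 0.877 and 0.818. Without LV cortisol 4, the highest array, the LV difference was 0.76 ± 0.24. The difference was 0.86 and 0.70 on slides 2 and 3 alone in LV, and 0.62 and 0.37 on slides 1 and 2 alone in septum. From the deposited value table it was 0.35 in septum.

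Of the list of calmodulin and EF-hand sensors 4 of 11 genes were named and tested, CALM2, CALML4, S100A4 and HPCAL1, and 0 passed in any comparison. In LV 4 of 4 differences were positive with a median of 0.56, and in septum 3 of 4 with a median of 0.28, against 49.1% and 54.7% of all probes. As CALM2 and CALML4 are members themselves, these counts are a description only. S100A4, a calcium-binding protein of migrating and mesenchymal cells, was well above background on 5 of 5 LV cortisol arrays but on 3 of 5 LV control arrays, so its fitted LV difference of 2.19 ± 1.08 rests partly on arrays at background, and the LV median of the list includes it. Its medians were -1.13 in LV cortisol and -2.16 in LV control, and -0.57 in septum cortisol and -2.13 in septum control. In septum its fitted difference was 0.34 ± 0.95. There the lowest cortisol array was at -5.85, and 4 of 5 cortisol arrays were well above background, against 5 of 5 control arrays. HPCAL1, a neuronal calcium sensor relative, was at 0.12 ± 0.28 in LV and 0.23 ± 0.21 in septum. MYLK, the calmodulin-dependent myosin light chain kinase and the 1 gene of 11 measured in the list of calmodulin-dependent kinases, was at 0.27 ± 0.29 in LV and 0.16 ± 0.15 in septum, and did not pass.

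**Figure D2:**
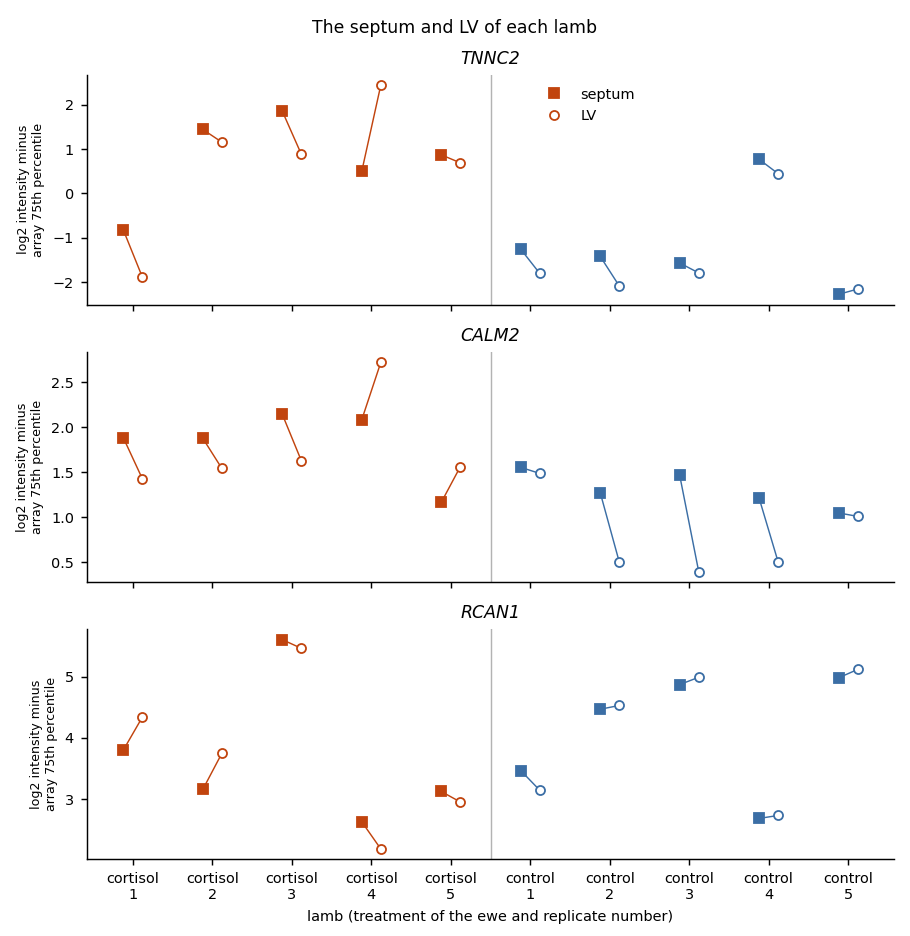
TNNC2, CALM2 and RCAN1 in the septum (squares) and LV (open circles) of each lamb, as log2 intensity minus the array's 75th percentile, with a line joining the arrays of 1 lamb. RCAN1 differs by up to 3.13 between lambs but by at most 0.59 within a lamb, and TNNC2 of cortisol 1 and control 4 departs from the other lambs of the same treatment in both regions.

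RCAN1 encodes regulator of calcineurin 1, which binds and restrains the calcium- and calmodulin-activated phosphatase calcineurin. It stood at 4.34, 3.75, 5.46, 2.18 and 2.95 in LV of cortisol 1 to 5, against 3.14, 4.53, 4.99, 2.73 and 5.12 in LV of control 1 to 5. In septum it was 3.80, 3.16, 5.61, 2.63 and 3.12 in cortisol 1 to 5, against 3.47, 4.47, 4.87, 2.68 and 4.98 in control 1 to 5. The lambs kept nearly the same level in both pieces of tissue: the 2 arrays of a lamb differed by a median of 0.16 and at most 0.59, while lamb means spanned 3.13. Lamb to lamb, both treatments held high and low animals.

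The mean of RCAN1 was 3.74 ± 1.26 in LV cortisol and 4.10 ± 1.1 in LV control, and 3.66 ± 1.16 in septum cortisol and 4.09 ± 0.99 in septum control (SD, n = 5 each). The differences, -0.37 ± 0.64 in LV and -0.43 ± 0.59 in septum, were smaller than these spreads, and neither passed (limma, adjusted p = 0.940 and 0.862). For scale, the median SD over all probes was 0.48, 0.31, 0.44 and 0.28 in LV cortisol, LV control, septum cortisol and septum control. By slide the difference went both ways: 1.05 on slide 3 alone and -2.10 on slide 2 alone in LV, and 0.65 on slide 1 alone and -2.05 on slide 2 alone in septum. Slide 2 held the cortisol 5 lamb, and cortisol 4 in septum, beside controls 3 and 5, which are among the high control lambs. Their part in the slide values was not tested, and slide and lamb cannot be told apart there. Of the 11 calcineurin and NFAT genes listed, RCAN1 was the 1 measured.

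MYH7 encodes the slow, beta myosin heavy chain, the motor of slow skeletal fibres and of the ventricles of large mammals. Its probes are shown because, unlike those of TNNC2, they read separate stretches: their longest shared run was 8 bases.
A_70_P026016: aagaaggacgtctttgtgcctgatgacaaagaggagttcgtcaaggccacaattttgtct
A_70_P026017: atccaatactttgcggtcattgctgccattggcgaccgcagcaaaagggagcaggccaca
Their binding to the closely related alpha myosin transcript was not tested.

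MYH7 stood at 4.62, 4.33, 4.10, 3.46 and 3.83 in LV of cortisol 1 to 5, against 4.53, 3.35, 3.59, 3.00 and 3.78 in LV of control 1 to 5. The septum arrays gave 4.44, 4.29, 4.21, 3.05 and 3.76 in cortisol 1 to 5, against 4.06, 3.48, 3.86, 3.08 and 3.94 in control 1 to 5. The groups overlap widely, and by this probe the arrays numbered 4 were lowest in each group. By the second probe that held in 3 of the 4 groups: LV cortisol 4 was at 3.87 and LV cortisol 5 at 3.72. The log2 difference was 0.42 ± 0.30 in LV and 0.26 ± 0.29 in septum, and the second probe gave 0.53 ± 0.27 and 0.47 ± 0.34 (limma, adjusted p = 0.877 and 0.838 for the first probe). In septum the difference was 0.77 on slide 1 alone and -0.50 on slide 2 alone, and in LV it was 0.72 on slide 3 alone and 0.15 on slide 2 alone. It was the 1 gene measured of 10 in the thick filament list.

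**Figure D3:**
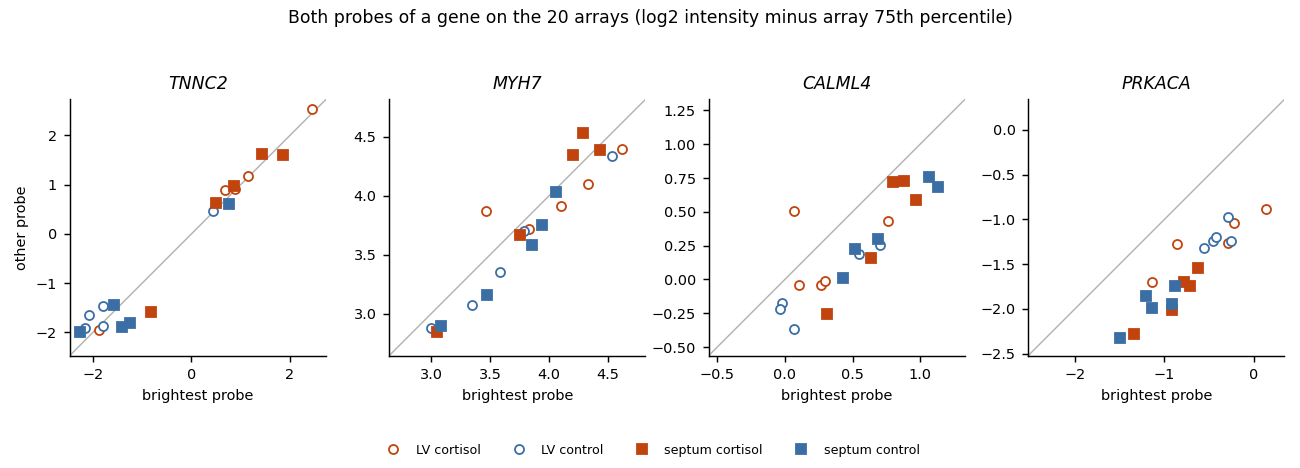
The brightest probe (horizontal) against the other probe (vertical) of TNNC2, MYH7, CALML4 and PRKACA on the 20 arrays, both as log2 intensity minus the array's 75th percentile, with the line of equality, for LV (open circles) and septum (squares). The TNNC2 points form a high and a low set near the line. In the MYH7 and CALML4 panels the point farthest above the line of equality is LV cortisol 4.

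Where a gene had 2 probes, they ranked the arrays alike but not equally well. Over the 20 arrays r was 0.98 for TNNC2, 0.94 for MYH7, 0.92 for PRKACA and 0.83 for CALML4, and the probes of CALML4 share 40 bases and those of PRKACA 26, so these pairs are partly one sequence. The gap between brighter and dimmer probe was 0.01 ± 0.31 for TNNC2, 0.11 ± 0.18 for MYH7, 0.29 ± 0.21 for CALML4 and 0.84 ± 0.17 for PRKACA (mean and SD over 20 arrays). For MYH7, CALML4 and PRKACA the array with the lowest gap was LV cortisol 4, at -0.41, -0.43 and 0.41, against -0.24, 0.08 and 0.56 on the next lowest array. For TNNC2 it was LV control 2, at -0.43.

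TPM1 encodes alpha tropomyosin, the coiled coil that lies along actin and gates myosin binding. Its probe is shown because its LV values depend on a single array.
A_70_P024291: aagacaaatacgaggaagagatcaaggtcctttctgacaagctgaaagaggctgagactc
On slide 3 its spot was marked as an outlier by the scanner software on 5 of 20 arrays, LV cortisol 1, 2 and 3 and LV control 1 and 2, which left 2 LV cortisol and 3 LV control values. These were 8.78 and 7.05 in cortisol 4 and 5, against 7.44, 6.98 and 7.45 in control 3, 4 and 5. In septum TPM1 was 7.79, 7.53, 7.94, 7.09 and 7.22 in cortisol 1 to 5, against 7.55, 6.78, 7.22, 6.99 and 7.07 in control 1 to 5.

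The TPM1 difference was 0.63 ± 0.53 in LV, which rested on the single array of cortisol 4. Without it the difference was -0.23 ± 0.37, and with the outlier spots kept, where the 5 restored values ran from 6.70 to 7.48, it was 0.37. The septum difference was 0.39 ± 0.21. Neither passed (limma, adjusted p = 0.883 in LV and 0.818 in septum). From the deposited value table the septum difference was -0.05. A probe of another name that shares an accession with TPM1, A_70_P001771, was also high in LV cortisol 4, at 7.10, against 3.47 to 4.63 on the other LV cortisol arrays and 3.16 to 4.24 in LV control. A further such probe, A_70_P048206, was not: it stood at -0.22 there, against 0.38 to 1.42 on the other LV cortisol arrays.

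LV cortisol 4 was also the highest of its group for TNNC2, at 2.44, and CALM2, at 2.72, and the lowest for RCAN1 and CRYAB. For MYH7 it was the lowest by the leading probe but not by the second. CNN1, calponin, a marker of smooth muscle and the 1 gene named of 5 in that list, was 5.23 there, against a group median of 2.32, and 3.65 in the septum of the same lamb. Its part in the values of that array was not tested, and slide 4 and this array cannot be told apart.

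CRYAB, alpha B crystallin, lost 5 of 20 values as outlier spots, LV cortisol 1 and 2 and LV control 1, 2 and 4, all on slide 3. The remaining LV values were 8.91, 8.06 and 8.81 in cortisol 3, 4 and 5, against 9.02 and 8.72 in control 3 and 5. In septum CRYAB was 8.81, 8.76, 9.15, 7.84 and 8.63 in cortisol 1 to 5, against 8.50, 8.27, 8.15, 7.89 and 8.43 in control 1 to 5. There 4 of 5 cortisol arrays lay above every control array, and cortisol 4 lay below all of them.

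The CRYAB difference was -0.27 ± 0.36 in LV and 0.39 ± 0.24 in septum, and neither passed (limma, adjusted p = 0.914 and 0.818). Without LV cortisol 4 the LV difference was -0.0050, and without LV cortisol 3 it was -0.43. Kept outlier spots turned the LV difference to 0.09. From the deposited value table the septum difference was 0.03, and on slide 2 alone it was -0.06, against 0.69 on slide 1 alone. CRYAA, the related alpha A crystallin best known from the lens and the other measured gene of 8 in the small heat shock list, was at 0.67 ± 0.39 in LV and 0.77 ± 0.38 in septum, and did not pass. The arrays of slide 3 had 9 to 68 outlier spots each, against 2 to 19 elsewhere.

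CALML4, a calmodulin-like EF-hand protein whose role in heart is little known, differed little by treatment. It stood at 0.27, 0.10, 0.76, 0.07 and 0.29 in LV of cortisol 1 to 5, against 0.07, -0.02, -0.04, 0.70 and 0.54 in LV of control 1 to 5. Septum values were 0.80, 0.31, 0.88, 0.97 and 0.64 in cortisol 1 to 5, against 0.52, 0.43, 0.69, 1.13 and 1.07 in control 1 to 5. The cortisol difference was 0.05 ± 0.21 in LV and -0.05 ± 0.20 in septum, within the spread of the arrays (limma, adjusted p = 0.975 and 0.961). The other probe gave 0.23 ± 0.20 and -0.01 ± 0.24, and did not pass either.

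PRKACA encodes the catalytic alpha subunit of protein kinase A, the kinase set free by cyclic AMP. It stood at 0.14, -0.29, -0.22, -0.86 and -1.14 in LV of cortisol 1 to 5, against -0.29, -0.46, -0.56, -0.26 and -0.43 in LV of control 1 to 5. Its septum levels were -0.71, -0.62, -0.78, -1.34 and -0.92 in cortisol 1 to 5, against -0.89, -1.14, -1.49, -1.20 and -0.92 in control 1 to 5. The LV control arrays were close together (SD 0.12), while LV cortisol spread more (SD 0.52, n = 5 each). The cortisol difference was -0.07 ± 0.24 in LV and 0.25 ± 0.19 in septum and did not pass (limma, adjusted p = 0.968 and 0.818). In LV it was 0.21 on slide 3 alone and -0.64 on slide 2 alone. PRKAR1A, a regulatory subunit that holds the catalytic subunit inactive and the other measured gene of 14 in the list, was at 0.07 ± 0.20 in LV and 0.26 ± 0.18 in septum.

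**Figure D4:**
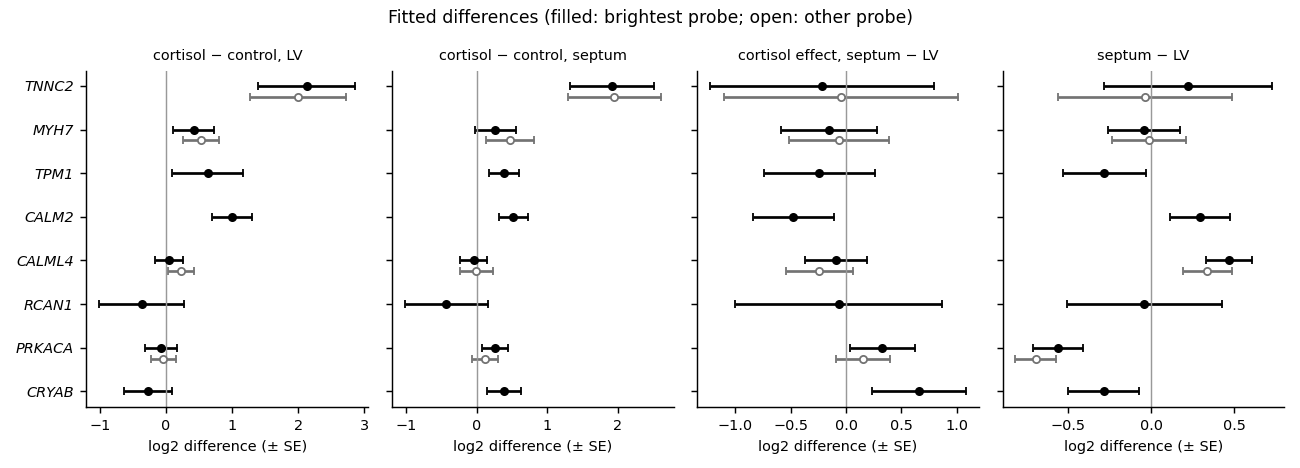
Fitted log2 differences with their SE for the 4 comparisons, filled for the brightest probe and open in grey for the other probe of the gene. TNNC2 has the largest cortisol differences, 2.13 in LV and 1.91 in septum, and PRKACA and CALML4 lie on opposite sides of 0 in the comparison of septum with LV.

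The comparison of the cortisol effect between septum and LV asks whether the wall and the chamber responded unequally. The difference of the effects, septum minus LV, ran from -0.48 ± 0.37 for CALM2 to 0.66 ± 0.43 for CRYAB, and 0 of 8 genes passed (limma, adjusted p = 1.00 for each), as did 0 of 10069 probes (0% called). At an unadjusted p under 0.05 there were 0 of 8 members, against 0.377% of all probes, and 2 of 8 differences were positive, against 55.9%. For TNNC2 it was -0.22 ± 1.01. That fit takes the 2 arrays of a lamb as independent. With the lamb as a replicate block the TNNC2 value was -0.22 ± 0.49 and that of CALM2 -0.48 ± 0.29, and again 0 of 8 genes and 0 of 10069 probes passed (limma, lowest adjusted p = 0.997), while 3.55% of all probes had an unadjusted p under 0.05.

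In septum against LV 1 of the 2 PRKACA probes passed. That fit takes the 2 arrays of a lamb as independent and leaves out slide, with which region was largely shared. The second PRKACA probe, A_70_P039567, was lower in septum by a log2 difference of -0.70 ± 0.12 (SE, 10 arrays per region), 1.62-fold lower, and passed (limma, adjusted p = 0.0173). The probe that stands for the gene had -0.56 ± 0.15 and did not pass (adjusted p = 0.0949). Thus 0 of 8 genes passed by their leading probe, while 40 of 10069 probes did (0.397% called), 3 higher and 37 lower in septum. This balance moved with the setting: 890 were higher and 956 lower with the lamb as a block, and 1 was higher and 0 lower with normexp background. At an unadjusted p under 0.05 there were 2 of 8 genes, PRKACA and CALML4, against 12.7% of all probes, and 3 of 8 differences were positive, against 54.9%. The second PRKACA probe passed with each of the 20 arrays left out in turn, at -0.76 to -0.65 (highest adjusted p = 0.0462).

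Within lambs the second PRKACA probe was lower in septum in 10 of 10, by 0.28 to 1.01, and the leading probe in 9 of 10, with the exception of cortisol 5, whose difference was 0.22. CALML4 was higher in septum in 10 of 10 lambs by its leading probe, by 0.12 to 0.90, and in 9 of 10 by its other probe. With the lamb as a replicate block, PRKACA passed by both probes (limma, adjusted p = 0.00453 and 0.000785) and so did CALML4, at 0.47 ± 0.08 and 0.34 ± 0.09 (adjusted p = 0.00415 and 0.0252). In that fit 18.3% of all probes were called, 1846 of 10069. The members' count, 2 of 8, stands near that background.

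**Figure D5:**
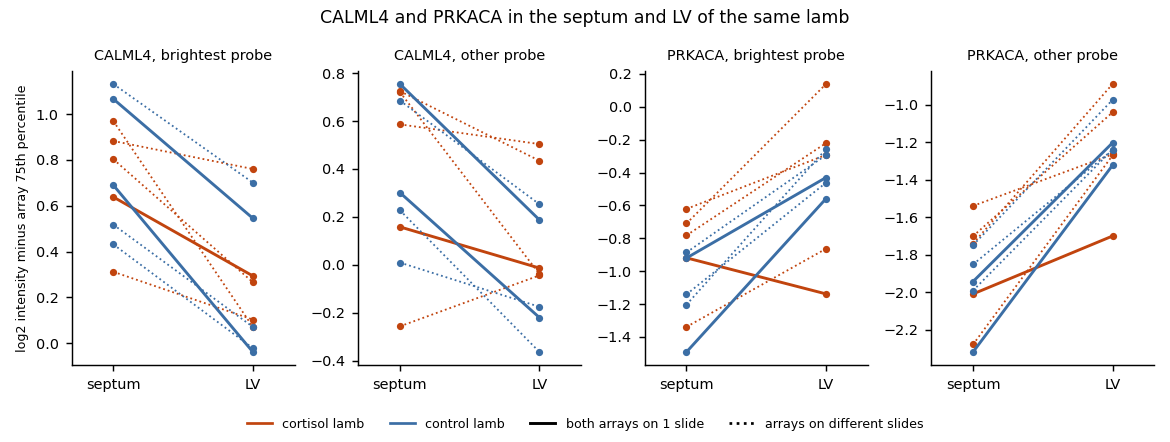
CALML4 and PRKACA in the septum and LV of the same lamb, as log2 intensity minus the array's 75th percentile, for both probes of each gene. Solid lines join arrays on 1 slide (3 lambs) and dotted lines arrays on different slides. By the leading CALML4 probe every line falls toward LV, and by the second PRKACA probe every line climbs toward LV.

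Region was largely shared with slide, since slides 1 and 3 had 1 region each. On slide 2 alone, chosen as a setting after the data were seen, the difference was -0.66 ± 0.18 for the second PRKACA probe, -0.35 ± 0.22 for the leading one and 0.57 ± 0.23 for CALML4. In the 3 lambs with both arrays on slide 2, with the lamb as a block, the values were -0.68 ± 0.18, -0.40 ± 0.25 and 0.53 ± 0.14. These kept the direction, but none passed (limma, lowest adjusted p = 0.356), as 0 of 10068 and 0 of 10069 probes did. With slide as a fixed block the difference was -0.72 ± 0.17 for the second PRKACA probe (adjusted p = 0.629), -0.45 ± 0.21 for the leading one and 0.56 ± 0.25 for CALML4 (adjusted p = 0.814 each). With slide as a random block the second PRKACA probe had -0.70 ± 0.13 (adjusted p = 0.0595). With normexp background the second PRKACA probe had -0.32 ± 0.20 and an adjusted p of 1.00.

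No other member passed between septum and LV. In the fit without the lamb block CALM2 stood at 0.29 ± 0.18, TNNC2 at 0.22 ± 0.51, MYH7 at -0.04 ± 0.22, RCAN1 at -0.04 ± 0.47, TPM1 at -0.28 ± 0.25 and CRYAB at -0.29 ± 0.21 (limma, adjusted p = 0.553 to 0.988). Within lambs CALM2 and TNNC2 were higher in septum in 8 of 10, MYH7 in 5 of 10 and RCAN1 in 4 of 10. TPM1 was higher in septum in 2 of 5 lambs and CRYAB in 1 of 5, as outlier spots left only 5 lambs with both values for each. TPM1 was 0.15 without LV cortisol 4, and the second TNNC2 probe gave -0.04. PRKAR1A, the protein kinase A subunit that binds PRKACA, stood at 0.35 ± 0.13 in that fit, opposite in sign to its partner, and did not pass (limma, adjusted p = 0.233). Fibroblast markers had negative differences in 4 of 4 measured genes of 7, with a median of -0.84, and none passed in the same fit. Of all probes 54.9% had a positive difference. For PRKAR1A and the fibroblast markers the fit with the lamb as a block is not given here. They were uneven in size, from -1.34 ± 0.37 for the collagen COL3A1 to -0.03 ± 0.20 for DCN. Their part in the values of CALML4 and PRKACA was not tested.

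The named genes whose pattern over the arrays was most like each member, after centring within region, were found among 543 candidates as a description. For TNNC2 these were APOA1 (r = 0.81), ACLY (0.72) and MTHFD2 (0.71), and for CALM2 PPP2CA (0.85), CXCL1 (0.80) and MT3 (0.78). MYH7 was most like PPP1R12A (0.86), RACK1 (0.85, over 19 arrays) and FTO (0.85), and RCAN1 like PPARGC1A (0.87), HIF3A (0.84) and CDKN1B (0.80). PRKACA was most like ATP5PD (0.85), RHOB (0.80) and AQP2 (0.77), and CALML4 like SQLE (0.65), RAB9A (0.64) and TALDO1 (0.63). Over the 15 arrays with values, TPM1 was most like ATP5MC2 (0.96), CXCL1 (0.94) and ATP5PO (0.93), and the genes most like CRYAB included RPL34 (0.86) and CRY1 (0.86). Among the members themselves r was highest for MYH7 with CRYAB (0.80) and TPM1 with CALM2 (0.75), each over 15 arrays. TNNC2 with CALM2 had 0.60. As values were centred within region only, differences by treatment remain in r, and those of TNNC2 and CALM2 were positive in both regions. LV cortisol 4 was the highest array for TPM1, at 8.78, and for CALM2, at 2.72. Its part in the r values of TPM1 and CALM2 was not tested. Arrays of 1 lamb, and arrays on 1 slide, are not independent points in any of these r values.

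Genes of calcium cycling and of the Z disc, such as the sarcoplasmic calcium pump and desmin, had 0 named probes among the 14 and 8 listed, and are not described here. Of the thin filament list, TPM1 and TNNC2 were the 2 measured of 13.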

How the data were processed

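The 20 arrays were 1-colour (Cy3) Agilent sheep arrays. The processed spot intensity was made by Agilent's Feature Extraction software, version 10.1.1.1, with detrending over the slide switched on, per the file headers. The deposited value table holds log2 values that followed each array's own log2 signal (r = 0.986 to 0.993) and whose columns had medians of 9.49 to 9.54 (septum) and 6.71 to 6.72 (LV). The septum columns held 4920 values each and the LV columns 10373, so these medians cover unlike sets of probes. Whether the regions had been normalized apart cannot be told from them, and the centring of the table stays unknown. The submitters' processing notes name limma.

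Log2 processed intensity was centred on each array's 75th percentile, and spots marked as outliers (non-uniform or population) were then left out. Probes entered a fit if well above background on 5 of 10 arrays of a region or 10 of 20. limma 3.58.1 in R 4.3.3 fitted the 4 comparisons, two-sided, with Benjamini-Hochberg adjustment over all probes. The code was tested on simulated data. Figures used matplotlib. Of 15008 probes 1396 (9.30%) were named, for 865 genes, from the files' names and RefSeq names of assembly ARS-UI_Ramb_v3.0. The MYH7 name was read by hand. The number of arrays limits the precision.

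Named genes are the 8 members with all probes, genes of the lists with the smallest p (at most 3 per comparison), and the 3 genes most like each member, of which 1 is not reported here. The members and lists were chosen with earlier results of these data known. Nothing in the labels says more of the lambs than their number per treatment, so p-values measure the spread between these samples.

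LV and septum arrays of the same treatment and number deviated together (r across probes 0.45 to 0.81, own partner highest in 10 of 10), and were paired as 1 lamb. Cortisol and control arrays of the same number were not paired. The alternatives were other background, normalization, centring and filters, kept outlier spots, the deposited table, slide, blocks, each array left out, and other probes. Slide 2 alone for the regions, and the probes that share an accession with TPM1, were added after seeing the data.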

Additional observations from a re-analysis of the deposited data

Results flagged for a closer look

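In 5 of 44 groups of 5 arrays, 1 per probe and group, the highest or lowest array stood far from the rest, with a gap to its neighbour that took up more of the whole range than Dixon's 95% critical value allows. Chance gives about 1 in 20. For TNNC2 the array was that of control 4. It was the highest of LV control by both probes, at 0.44 and 0.45, and the highest of septum control by the second probe, at 0.61. As the probes share 59 bases and the regions share the lamb, these are not separate events. For CALM2 the array of cortisol 4 was the highest of LV cortisol, at 2.72, and that of cortisol 5 the lowest of septum cortisol, at 1.16. No member passed the test of the difference of the cortisol effect between the regions.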

How the results depend on the processing

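The count of 0 probes for each cortisol effect and for their difference held in every alternative run, slide and replicate block fits and arrays left out included. For septum against LV the count of 40 probes became 1 with normexp background, 99 without the filter on dim probes, 79 with probes well above background on every array, 0 with slide as a fixed block and 2 with it as a random block. It was 1846 with the lamb as a replicate block, 0 on slide 2 alone and 0 with the lamb block on slide 2 (both chosen after seeing the data). Leaving out 1 array gave 9 to 417: it was 417 without LV cortisol 5, and 9 to 23 without LV control 1, 2, 3 or 5, LV cortisol 1, 2 or 3, septum control 2, 3, 4 or 5, or septum cortisol 4 or 5. The cause was not tested. The replicate block on label numbers (cortisol effects) changed no call, for example TNNC2 in LV at 2.13 and an adjusted p of 0.747. By their leading probes PRKACA and CALML4 passed in the lamb block only, besides PRKACA without LV cortisol 5 (-0.65, adjusted p = 0.0105).

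Of 381 alternatives for single members other than left-out arrays, 23 turned the sign, none of a value that passed. In the cortisol effects these were RCAN1 in LV (1.05 on slide 3 alone, 0.080 with slide as a fixed block) and septum (0.65 on slide 1 alone), TPM1 in LV (-0.39 on slide 2 alone and with slide as a fixed block) and septum (-0.053 in the deposited table, -0.13 by probe A_70_P048206), MYH7 in septum (-0.50 on slide 2 alone), CALML4 in septum (0.011 with normexp), PRKACA in LV (0.21 on slide 3 alone) and CRYAB in LV (0.090 with outlier spots kept) and septum (-0.058 on slide 2 alone). In the difference of effects they were TNNC2 (0.27 with normexp, and 0.27 with slide as a fixed block), TPM1 (0.015 with outlier spots kept, 0.40 on slide 2 alone, 0.78 with slide as a fixed block), RCAN1 (0.052 on slide 2 alone) and CRYAB (-0.000589 on slide 2 alone). In septum against LV they were TNNC2 (-0.011 with normexp, -0.038 by the other probe), MYH7 (0.12 with the lamb block on slide 2) and TPM1 (0.25 by probe A_70_P048206). The cause was not tested. Left-out arrays turned 45 of 480, in ranges of -0.068 to 0.16 for CALML4 in LV, -0.13 to 0.056 for CALML4 in septum, -0.23 to 0.091 for PRKACA in LV, -0.80 to 0.023 for RCAN1 in LV and -0.23 to 1.49 for TPM1 in LV. In the difference of effects the ranges were -0.21 to 0.022 for CALML4, -0.37 to 0.071 for MYH7, -0.55 to 0.37 for RCAN1, -0.85 to 0.26 for TNNC2 and -1.10 to 0.62 for TPM1. In septum against LV they were -0.13 to 0.067 for MYH7, -0.28 to 0.17 for RCAN1, -0.10 to 0.46 for TNNC2 and -0.71 to 0.15 for TPM1. Without a change of sign, the ranges were wide for CRYAB in LV (-0.43 to -0.0050), MYH7 in septum (0.11 to 0.49) and RCAN1 in septum (-0.92 to -0.17), none of them past the threshold. TPM1 and CRYAB could not be fitted on slide 3 alone, where outlier spots left too few values, and PRKACA had no septum values in the deposited table.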

Other observations

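Lamb means, each over the septum and LV of 1 lamb and with both treatments pooled, ranged over 3.68 for TNNC2 and 3.13 for RCAN1. The largest difference between the septum and LV of a lamb was 1.94 for TNNC2, in cortisol 4, and 0.59 for RCAN1. For PRKACA lamb means ranged over 0.82 by the leading probe and 0.54 by the second, and the largest difference within a lamb was 0.95 and 1.01. For the leading CALML4 probe lamb means ranged over 0.71, and the largest difference within a lamb was 0.90.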
